A study of Mus musculus with 6 samples.

Results

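Macrophages of the mouse testis were examined as the cell barcodes that carried macrophage messenger RNAs above a marker gate. A barcode is the droplet tag that stands for a captured cell, and a unique molecular identifier (UMI) marks a captured RNA molecule. A barcode was taken when it had at least 1000 UMIs, when at least 3 of the 11 genes Cd74, H2-Aa, H2-Ab1, H2-Eb1, C1qa, C1qb, C1qc, Csf1r, Lyz2, Tyrobp and Fcer1g had a UMI, and when these genes made up at least 0.5% of its UMIs. Of 48939 barcodes in 6 libraries, 247 passed, with 894998 UMIs in all. The barcodes were thus chosen by the levels of these 11 genes, which are given below as a description and without a test.

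The libraries came from whole testes of 8-week-old wild-type C57BL/6 mice (C57BL/6N in the methods) on a high-fat (HFD) or low-fat (LFD) diet for 2 weeks, with 3 libraries for each. Testes were digested with collagenase and trypsin, and RNA was captured in droplets by its poly(A) tail and read near the 3' end. The diet of a library was taken from its title. The names of the deposited matrices give the opposite diet for 6 of 6 libraries, so the groups are named here by their labels only. If the matrix names are right, every difference between the diets below changes sign. Total UMIs ranged from 39196921 to 95845514 per library. Haemoglobin mRNAs stood at 0.0209 and 0 counts per 1000000 UMIs (CPM) in the replicate 1 libraries labelled HFD and LFD and at 30.5 to 99.7 CPM in the other 4. Pairs of libraries shared 12 to 28 barcode sequences, and 0 barcodes passed the gate in both libraries of a pair.

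Testis macrophages live between the seminiferous tubules and on their walls, next to the steroid-producing Leydig cells. They present peptides on major histocompatibility complex (MHC) class II, secrete the complement starter C1q, engulf debris and answer signals with chemokines and cytokines. In the mouse, interstitial macrophages rich in the CSF1 receptor are usually set apart from peritubular macrophages rich in MHC class II.

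The start-site regions of several genes whose mRNAs mark these barcodes are shown because they carry short control elements known from immune cells. The MHC class II genes below carry the Y box core TGATTGG, a motif bound by NF-Y. H2-Eb1 and H2-DMb1 also share AACTGATGATGCT, the longest run of letters common to the 250 bases before both starts, which lies in the X box region. Cxcl2 carries GGGAATTTCC, a motif of the NF-kB type, which is the longest run beginning with GGGA that it shares with Nfkbia. Each run is the 150 bases before the annotated start, read 5' to 3' on the strand of the gene, from RefSeq sequence of GRCm38.p6, with matches in capitals. H2-Aa lies at chr17:34287824-34287973 (minus strand), H2-Eb1 at chr17:34305717-34305866 (plus strand), H2-DMb1 at chr17:34153041-34153190 (plus strand) and Cxcl2 at chr5:90903749-90903898 (plus strand).
H2-Aa: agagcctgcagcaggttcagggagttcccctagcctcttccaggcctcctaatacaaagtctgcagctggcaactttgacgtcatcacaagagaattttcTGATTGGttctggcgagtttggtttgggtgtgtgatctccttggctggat
H2-Eb1: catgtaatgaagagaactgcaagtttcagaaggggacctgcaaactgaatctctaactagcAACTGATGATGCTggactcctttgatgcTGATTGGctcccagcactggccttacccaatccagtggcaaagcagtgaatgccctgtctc
H2-DMb1: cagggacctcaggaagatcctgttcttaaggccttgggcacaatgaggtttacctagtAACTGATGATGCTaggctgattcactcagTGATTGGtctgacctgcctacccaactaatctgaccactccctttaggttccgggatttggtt
Cxcl2: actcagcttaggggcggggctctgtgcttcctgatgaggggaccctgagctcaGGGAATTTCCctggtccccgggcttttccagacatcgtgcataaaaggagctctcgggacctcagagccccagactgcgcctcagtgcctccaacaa
Counted from the start site, the Y box core began at -50 in H2-Aa, -61 in H2-Eb1 and -63 in H2-DMb1, and the X box letters at -89 in H2-Eb1 and -92 in H2-DMb1. The NF-kB letters began at -97 in Cxcl2. In the GENCODE M21 annotation Cxcl2 starts at 90903871, inside the run shown, so this distance holds for the RefSeq start only. Of 32851 start-site windows of the same table, searched on both strands, 7.82% held TGATTGG, 0.00913% held AACTGATGATGCT and 0.0883% held GGGAATTTCC. These windows hold the 250 bases before a start and some bases after it, so they are longer than the runs shown. The X box and NF-kB letters were taken from the genes shown, so their presence in these genes is no finding. A match is a description of letters and not a measured binding site. The genes shown were picked among those with a match, and C1qb, C1qc, Lyz2, Fcer1g, Ccl3 and H2-DMa, a class II pathway gene, held 0 of the 3 motifs. Cd74, H2-Ab1, C1qa, Csf1r, Tyrobp and Ccl4 had no entry in the table.

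The MHC class II genes made up the greater part of the gate's UMIs. Cd74, the invariant chain that guards the peptide groove of class II, stood at 18919.5, 11719 and 11902 CPM in the libraries labelled HFD and at 15777, 15816 and 19257 CPM in those labelled LFD (replicates 1, 2 and 3 in this order here and below). HFD replicate 1 and LFD replicate 3 were high, HFD replicates 2 and 3 were low, and the diets overlapped. In all other barcodes Cd74 stood at 1.71 CPM. H2-Aa, the class II alpha chain, stood at 6802, 4478 and 4739.5 CPM in the libraries labelled HFD and at 5216, 5014 and 5838 CPM in those labelled LFD. The beta chain genes H2-Ab1 and H2-Eb1 ranged from 3949.6 to 6012 CPM and from 3828 to 6762 CPM over the 6 libraries. HFD replicate 1 was the highest library for H2-Aa, H2-Ab1 and H2-Eb1.

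The C1q chains, which form the first component of the classical complement cascade, were found beside class II in nearly every member. C1qa stood at 2947, 1957 and 1865 CPM in the libraries labelled HFD and at 2736, 2185 and 2767 CPM in those labelled LFD, and the diets overlapped. C1qb ranged from 1829 to 2641 CPM and C1qc from 1053 to 1713 CPM. Csf1r, the receptor that keeps most tissue macrophages alive, stood at 301, 391 and 255 CPM against 292, 209.6 and 366 CPM. Lyz2, a lysozyme of myeloid cells, ranged from 869.7 to 1472 CPM, and Tyrobp and Fcer1g, the adaptor chains of activating immune receptors, from 998 to 1377 CPM and from 943 to 1491 CPM. Csf1r was found in 61.1% of the members and in 0.0316% of spermatid barcodes, at median depths of 3415 and 2438 UMIs, and C1qb in 17.6% of spermatid barcodes.

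**Figure D1:**
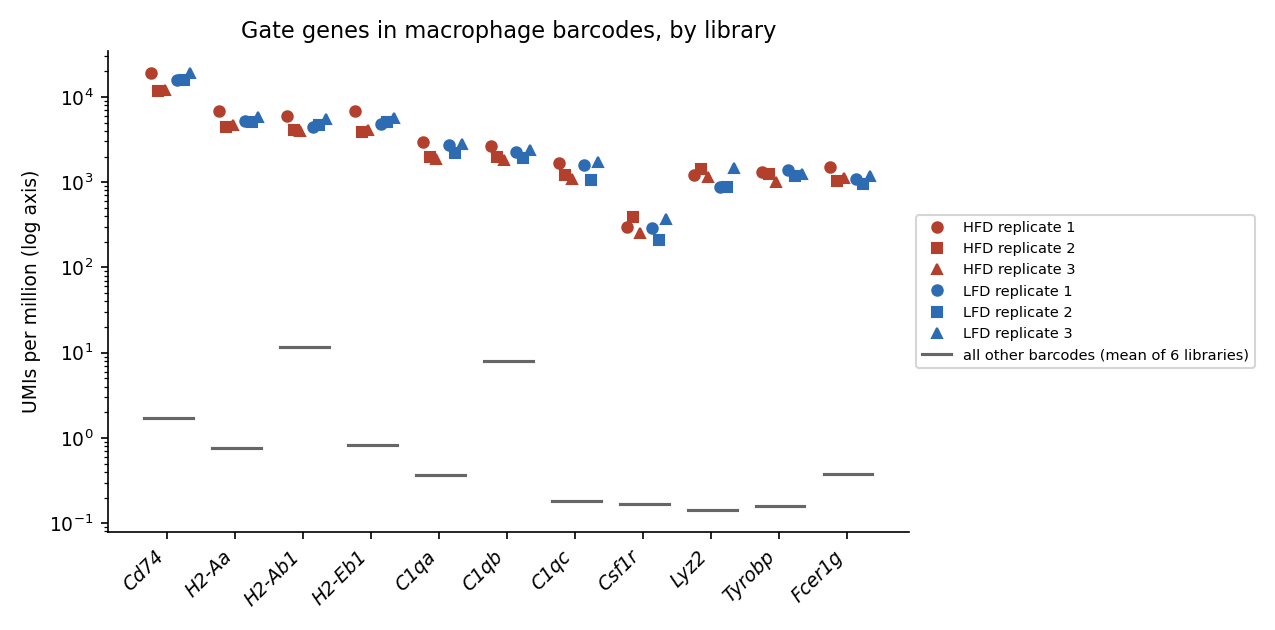
CPM (log axis) of the 11 gate genes in macrophage barcodes, with a point for each library (red for the 3 labelled HFD, blue for the 3 labelled LFD) and a grey line for the mean of all other barcodes. The points of both diets overlap for each gene and lie far above the grey lines, as the gate required, with Cd74 between 11719 and 19257 CPM.

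Most members carried nearly the whole gate. All 11 genes were found in 105 members and at least 10 genes in 195 members (78.9%), while 41763 barcodes had 0 of them. The gate genes took a median of 4.13% of the UMIs of a member, from 0.515% to 8.34%. The members just inside the threshold stood at 0.515%, 0.540% and 0.541%, and the barcodes just outside it at 0.479%, 0.458% and 0.456%. A barcode of LFD replicate 2 with 52949 UMIs and 10 of the genes stood outside at 0.338%. Of the members, 9 were among the 3356 barcodes with the highest Scrublet doublet scores, 1 also passed a gate of Sertoli cell markers and 0 passed a gate of Leydig, peritubular and stromal markers.

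Genes that the gate did not use carried the identity of macrophages, which is again a description, since the gate chose the barcodes. Of 20 further macrophage genes, 19 were higher in the members than in all other barcodes in each of the 6 libraries. Ctss, the cathepsin that trims the invariant chain, ranged from 692 to 1094 CPM, against 0.115 CPM in the other barcodes. Cd14, the co-receptor for bacterial lipopolysaccharide, ranged from 597 to 1198 CPM. Adgre1, which encodes the F4/80 antigen, stood at 183, 188 and 178 CPM in the libraries labelled HFD and at 91.2, 105 and 146 CPM in those labelled LFD. It was found in 38.9% of the members and in 0.158% of spermatid barcodes. Cx3cr1, the fractalkine receptor, ranged from 246 to 431 CPM. Mertk, a receptor for dying cells, had 6 UMIs in all. Aif1 ranged from 482 to 711 CPM, and it stood at 995 CPM in spermatid barcodes, so its level did not set macrophages apart here.

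Markers of T cells, natural killer cells, granulocytes, mast cells and red cells were mostly at 0. Some genes of the B cell, dendritic cell and monocyte lists were present. Of 15 T cell genes, 10 had 0 UMIs in the members, among them Cd3e, Cd3g, Cd8a, Trac and Lck, and the summed level of the list was 0 to 77.2 CPM against 49.1 to 66.6 CPM in the other barcodes. Of 9 natural killer genes, 8 were at 0, as were 6 of 7 neutrophil genes, 8 of 8 mast cell and basophil genes and 6 of 6 erythroid genes. The 11 dendritic cell genes summed to 146 to 345 CPM against 299 to 356 CPM in the other barcodes, with Xcr1, Clec9a and Cd209a at 0. Of their 183 UMIs 137 were of Itgae, an integrin chain that stood at 312 CPM in the other barcodes, and the transcription factor gene Batf3 (34 UMIs) was higher than in the other barcodes in 6 of 6 libraries. The 8 monocyte genes summed to 157 to 337 CPM against 159 to 225 CPM, with Ly6c2 and Vcan at 0. Of these genes, Ccr2, the receptor for CCL2, at 41.9 to 133 CPM, and Nr4a1, an early response factor, at 31.3 to 157 CPM, were higher in 6 of 6 libraries. For a marker seen in 0 of 247 members, up to 1.21% of such barcodes could still have a UMI, which covers counting error only. Leydig genes summed to 0 to 36.5 CPM and Sertoli genes to 35.6 to 182 CPM, against 2.05 to 21.9 CPM and 40.3 to 321 CPM in the other barcodes.

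Ighm, the mu heavy chain gene, was also present. It stood at 178, 235 and 232 CPM in the libraries labelled HFD and at 209.8, 168 and 251 CPM in those labelled LFD, against 0.102 CPM in the other barcodes. A UMI of Ighm was found in 49.0% of the members and in 0.0211% of spermatid barcodes, and the highest count in a member was 5. Cd79b, a partner of the B cell receptor, had 24 UMIs. Cd79a, Ms4a1, Igkc and Ebf1 of the same list were at 0. The 8 genes of this B cell list summed to 178 to 303 CPM, against 5.80 to 11.1 CPM in the other barcodes. Of these genes, 2 were higher in 6 of 6 libraries.

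Germ cell RNA was present in the members. Prm1, a protamine that packs the DNA of elongating spermatids, stood at 9383, 7672 and 5244 CPM in the libraries labelled HFD and at 9129, 7979 and 4846 CPM in those labelled LFD, against 50201 CPM in spermatid barcodes and 12496 CPM in all other barcodes. The 7 genes of elongating spermatids summed to 13524 to 27903 CPM. Prm1, Prm2, Tnp1 and Tnp2 together took 1.25% to 2.58% of the members' UMIs by library, and 9 members held 5% or more. Of 1413 genes with at least 100 UMIs in the members, 725 were below the level of the other barcodes in each of the 6 libraries and 193 were at least 10 times above it (with 5 CPM added to both levels).

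Outside the gate, chemokine and early response genes led the 20 genes with the highest ratio of members to other barcodes. Ccl4, which draws in monocytes and lymphocytes, stood at 5538, 7249 and 3195 CPM in the libraries labelled HFD and at 3383, 4029 and 2381 CPM in those labelled LFD. With 5 CPM added to both levels, as in the ranking, Ccl4 was at least 431 times as high as in the other barcodes in each library. It was found in 78.5% of the members and in 0.874% of spermatid barcodes. Its relative Ccl3 and the neutrophil attractant Cxcl2 followed at 948 to 3217 CPM and 1342 to 2090.2 CPM. Atf3, a stress-induced transcription factor, ranged from 1274 to 2701 CPM, Nfkbia, the inhibitor that NF-kB itself induces, from 875 to 1451 CPM, and Zfp36, which speeds the decay of cytokine mRNAs, from 533 to 1639 CPM. Other leaders were Rps4x, Cd52, Ctss, Cd14, Tmem176b, Junb, H2-D1, Lcp1, Fos, Wfdc17, B2m and Cyba. The other barcodes are mostly germ cells, and some leaders were also high in the Leydig, peritubular and stromal gate. Mean levels there and in the members were 1879 and 2936 CPM for Rps4x and 1276 and 1575 CPM for Junb. For Tmem176b they were 528 and 681 CPM and for Zfp36 494 and 1117 CPM. Cxcl2, Ccl3, Cd52, Ctss, Cd14, Lcp1 and Wfdc17 stood at 0 CPM there.

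Gene groups with a shared role showed which parts of the macrophage repertoire were present. Of 18 chemokine and chemokine receptor genes, 11 were higher in the members than in the other barcodes in all 6 libraries, and their sum ranged from 6203 to 14122 CPM against 7.89 to 11.1 CPM. Of 19 cytokine and NF-kB genes, 12 were higher in all 6 libraries. Il1b, the fever cytokine, stood at 1076, 1135 and 624 CPM against 529, 718 and 366 CPM, and Tnf at 415, 274 and 327 CPM against 274, 372 and 428 CPM. The cytokine genes Il6, Il12b and Il1rn were at 0. Of 23 immediate early and stress genes, 20 were higher in all 6 libraries. Fos and Jun, which pair to form the AP-1 factor, ranged from 1419.8 to 2896 CPM and from 1257 to 2395 CPM. Barcodes of the Leydig, peritubular and stromal gate held 2394 CPM of Fos and 1659 CPM of Jun, within the range of the macrophage libraries.

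Heat shock genes were high in both replicate 1 libraries. Hspa1a, an inducible HSP70 chaperone, stood at 2078, 822 and 653 CPM in the libraries labelled HFD and at 2088, 382 and 721 CPM in those labelled LFD. Hspa1b stood at 1254, 289.6 and 279 CPM against 1505, 152 and 240.2 CPM, and since the coding sequences of these genes are nearly identical, the split of reads between them is uncertain. Hmox1, which breaks down haem, stood at 93.8, 7.83 and 35.6 CPM against 192, 15.7 and 83.5 CPM, so that LFD replicate 3 was close to HFD replicate 1. The replicate 1 libraries are also those in which haemoglobin mRNAs were near 0, and the part of whatever set these libraries apart was not tested.

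Antigen presentation beyond the gate was mostly peptide loading and class I. Of 17 class II pathway genes, 5 were higher in all 6 libraries. H2-DMa and H2-DMb1, the chains of the exchange factor that loads peptides onto class II, ranged from 137 to 345 CPM and from 113 to 311 CPM. Ciita, the coactivator of the class, had 24 UMIs in all, or 0 to 52.2 CPM, against 0.0145 CPM in the other barcodes. The costimulatory genes Cd86 and Cd83 ranged from 94.0 to 282 CPM and from 146 to 528 CPM. Of 10 genes of class I presentation, 8 were higher in all 6 libraries, with B2m, its light chain, at 906 to 1565 CPM.

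Iron, lysosome and phagocytic genes were also present. Fth1 and Ftl1, the ferritin chains that store iron, ranged from 3349.8 to 6358 CPM and from 2328 to 4349 CPM. Of 16 lysosomal genes, 11 were higher in all 6 libraries. Of 14 interferon response genes, 10 were higher in all 6 libraries, with Ifitm3 at 235 to 617 CPM. Of 17 complement and phagocytic receptor genes, 9 were higher in all 6 libraries. C3ar1, the receptor for complement fragment C3a, ranged from 104 to 266 CPM and Trem2, a lipid-sensing receptor, from 73.3 to 188 CPM, while Vsig4 and C3 were at 0.

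Few growth factor mRNAs were measured. Of 13 growth and niche factors, 7 had 0 UMIs, among them Csf1, Il34 and Vegfa. Pdgfb ranged from 89.1 to 172 CPM and Tgfb1 from 68.1 to 178 CPM. Of 10 enzymes and carriers of vitamin A and steroids, 3 were higher in all 6 libraries. Ch25h, which makes the oxysterol 25-hydroxycholesterol, ranged from 54.3 to 204 CPM. The 15 cell cycle genes summed to 666 to 1074 CPM, below the 1318 to 1799.6 CPM of the other barcodes, most of which are germ cells.

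**Figure D2:**
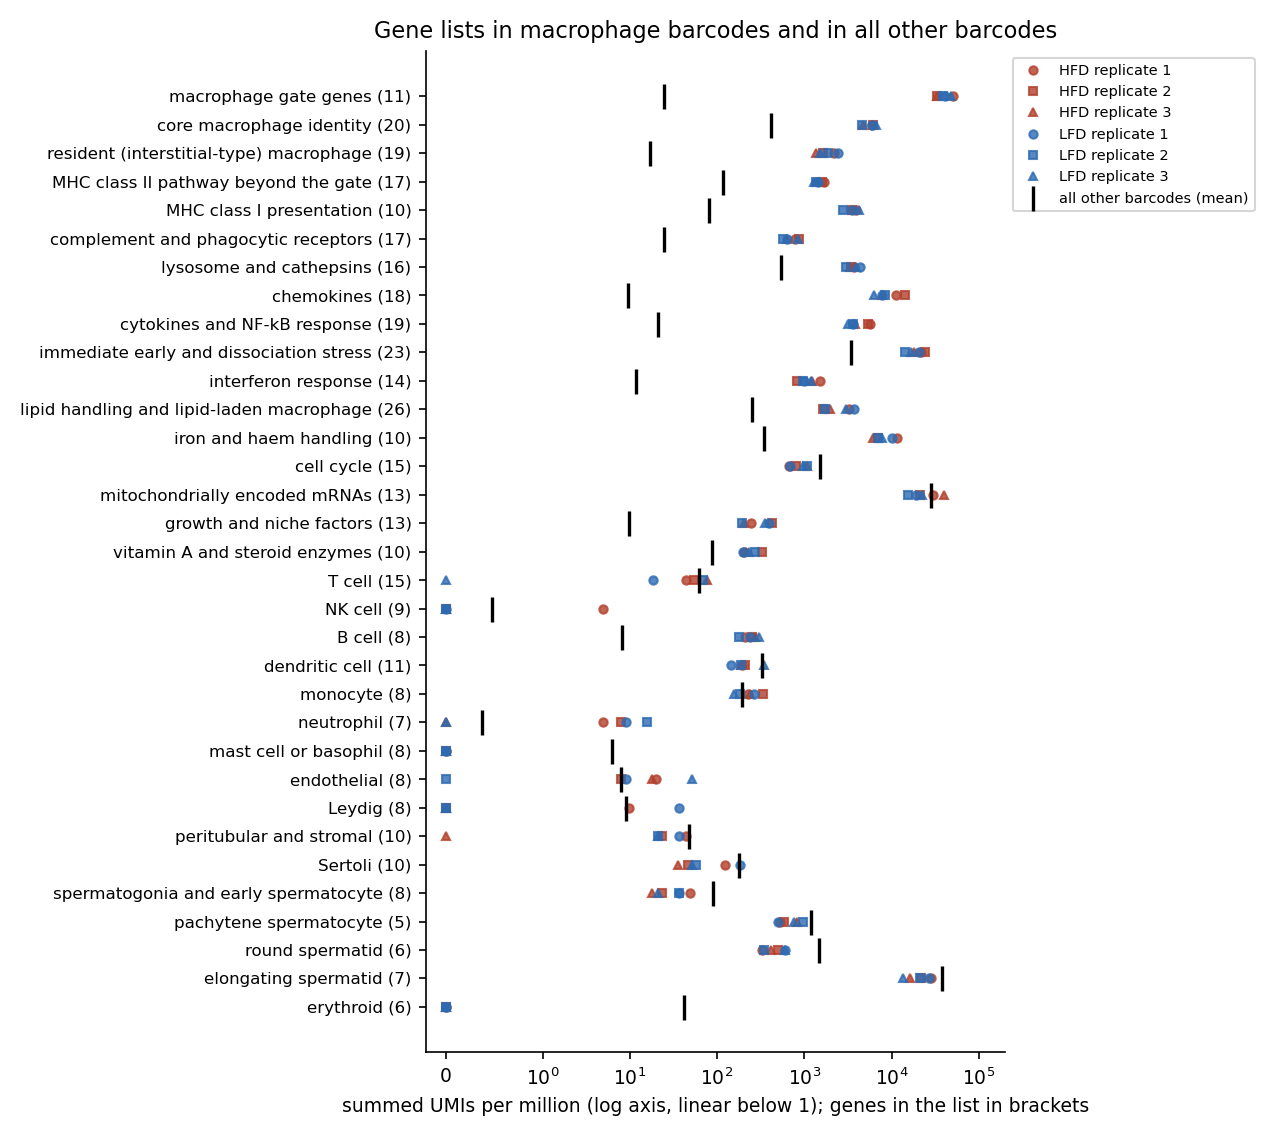
Summed CPM of each gene list (log axis, linear below 1, with the number of genes in brackets) in macrophage barcodes, with a point for each library and a black bar for the mean of all other barcodes. Chemokines lie at 6203 to 14122 CPM against a mean of 9.41 CPM in the other barcodes, while mast cell and erythroid genes lie at 0 in all 6 libraries.

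The members differed widely among themselves in MHC class II. The 4 class II genes took a median of 3.25% of the UMIs of a member, with a range from 0% to 7.30%, and the 3 C1q genes a median of 0.575%, with a range from 0% to 1.87%. Both kinds were found in 239 of 247 members. The library medians of the class II share were 4.15%, 2.36% and 2.57% in the libraries labelled HFD and 3.08%, 3.30% and 3.79% in those labelled LFD, which overlapped. Across the 247 members the Spearman correlation of the class II and C1q shares was 0.385, and within single libraries it lay between 0.0903 and 0.615. The share of the early response list and the summed share of Ccl3, Ccl4 and Cxcl2 had a Spearman correlation of 0.560. Within libraries it was 0.364 to 0.682. These values describe barcodes that share a library and a total, so they carry no test. Cx3cr1 was found in 57.5% of the members and Mrc1, the mannose receptor, in 32.8%, with 51 members positive for both.

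Apart from this main body, 4 members carried a set of genes known from long-lived resident macrophages. They were chosen after their values were seen, as the members with at least 2 of the 8 genes Folr2, F13a1, Ccl8, Ccl24, Cbr2, Stab1, Cd163 and Fcrls. The 4 members had 4 to 8 of these genes, while 24 other members had 1 and 219 had 0. The member of HFD replicate 1 had 5976 UMIs, with 27 of Ccl8, 6 of Folr2 and 4 of the class II genes. That of LFD replicate 1 had 7498 UMIs, with 11 of Folr2, 7 of Ccl24 and 0 of class II. The member of LFD replicate 2 had 3805 UMIs, with 19 of F13a1, 8 of Folr2 and 0 of class II. That of LFD replicate 3 differed from the other 3 in class II, with 194 such UMIs of 4103, and had 7 of F13a1. Each of the 4 had 36 to 112 UMIs of C1q. Lyve1, Cd209f and Cd209g, also known from resident macrophages, were at 0 in the 247 members.

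The same 4 barcodes held most of the UMIs of Apoe, the gene of a lipid carrier. They had 67 to 230 UMIs of Apoe each, or 54.3% of the 1155 Apoe UMIs of all members, against a median of 1 and a highest count of 56 in the other members. The pooled level of Apoe was 2142, 188 and 831 CPM against 2481, 671 and 1639.5 CPM. Without the 4 barcodes it was 1038, 188 and 831 CPM against 558, 326 and 458 CPM, so that single barcodes held 52.3% to 79.0% of the Apoe UMIs in HFD replicate 1 and in LFD replicates 1, 2 and 3. Apoe was found in 55.5% of the members and in 33.1% of spermatid barcodes.

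**Figure D3:**
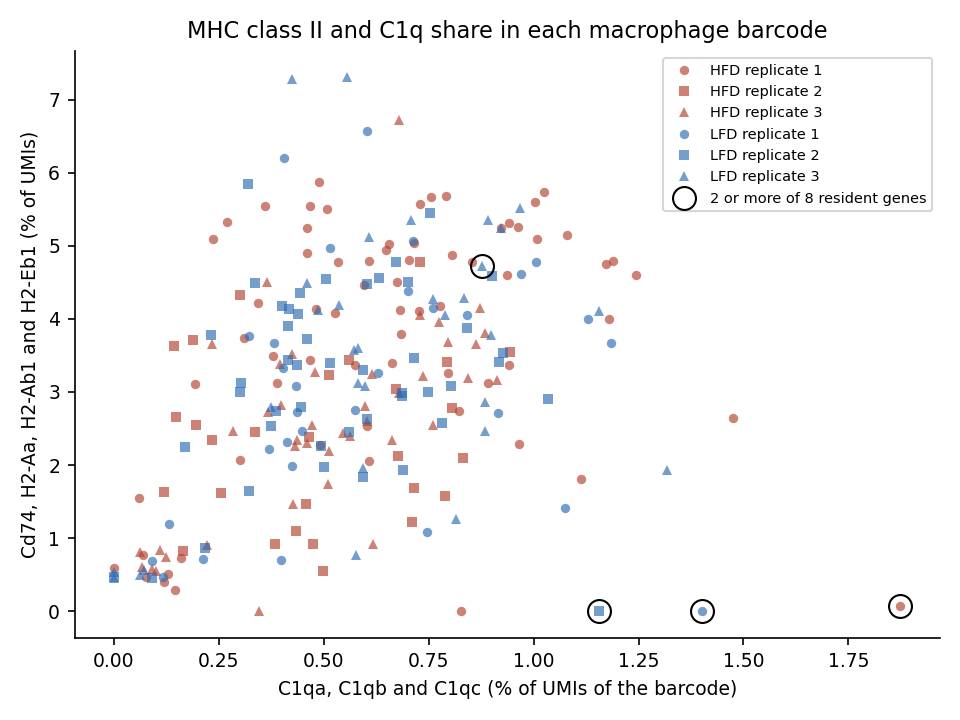
Share of UMIs from the 4 MHC class II genes against the share from the 3 C1q genes in each of the 247 macrophage barcodes, in percent, coloured by the labelled diet (red HFD, blue LFD) with a symbol for each replicate. Black circles mark the 4 members with at least 2 of 8 resident macrophage genes, of which 3 lie near 0% class II at 1.16% to 1.87% C1q.

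Clustering of the members gave 3 groups, which are described without a test since genes of the same members made them. Germ cell, erythroid and mitochondrial genes, and genes higher in spermatid barcodes than in members, were left out of the clustering. The mitochondrial mRNAs named below thus did not make the groups. A group of 106 members was led by Cxcl2, Il1b, Ccl12, Cdkn1a, Egr1, Nfkbia, Nfe2l2 and Atf3. A group of 105 members was led by Apoe, F13a1, Ccl8, Folr2, Ccl24, Fcrls, Rbfa and Cd63, of which Folr2 was found in 4 members in all and Ccl8 and Ccl24 in 3 each. These groups had similar medians of the class II share, 3.45% and 3.27%, and of depth, 3470.5 and 3454 UMIs. The group of 36 members had a median of 2209 UMIs, 0.778% class II and 0.130% C1q and was led by Cdc42ep3, mt-Co3, Ahi1, mt-Co2, Zdhhc12, mt-Nd2, Cenpf and mt-Atp6. It held the 4 members without C1q and 5 of the 9 members with a high doublet score, and it was left unnamed. Each group had members from all 6 libraries.

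Mitochondrial mRNAs were compared with those of other somatic cells of the same libraries, because mitochondrial RNA was a theme of the study and the gates did not use these genes. The 13 mitochondrially encoded mRNAs took 2.98%, 2.13% and 4.03% of the members' UMIs in the libraries labelled HFD and 1.91%, 1.54% and 2.22% in those labelled LFD. Barcodes that passed a gate of Sertoli markers (458 barcodes, median 2017.5 UMIs) stood at 7.74% to 20.6%, and those that passed a gate of Leydig, peritubular and stromal markers (161 barcodes, median 6906 UMIs) at 3.997% to 6.30%. The macrophage share was lower than the Sertoli share in 6 of 6 libraries (mean difference -10.8 percentage points, SD 5.69, two-sided exact sign-flip p = 0.03125). It was lower than the stromal share in 6 of 6 libraries as well (mean difference -2.75 percentage points, SD 0.980, two-sided exact sign-flip p = 0.03125), and both p-values stayed at 0.03125 after Benjamini-Hochberg adjustment over the 2 comparisons. This is the smallest p that 6 libraries allow, and it became 0.0625, the smallest for 5, without any library. The stromal gate held 5 barcodes in HFD replicate 3, and the Sertoli gate 12 in HFD replicate 2 and 18 in HFD replicate 3. Sertoli barcodes reached 114514 UMIs, so single deep barcodes can weigh on the pooled share. Against all other barcodes, the summed level of these mRNAs in the members was 0.471 to 1.72 times by library.

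The diets were compared over libraries, and the p-values measure the spread between 3 libraries per diet, where no p below 0.1 can be reached by permutation. Macrophages made up 0.685% of the barcodes of HFD replicate 1 (95% exact interval 0.532% to 0.867%, counting error only), 0.345% of HFD replicate 2 (0.229% to 0.498%) and 0.567% of HFD replicate 3 (0.409% to 0.766%). They made up 0.468% of LFD replicate 1 (0.318% to 0.663%), 0.424% of LFD replicate 2 (0.311% to 0.563%) and 0.539% of LFD replicate 3 (0.366% to 0.764%). The values of the LFD libraries lay inside the range of the HFD libraries. The means were 0.532% ± 0.173 (SD, n = 3) and 0.477% ± 0.0581 (SD, n = 3), and the difference of 0.0554 percentage points was within the spread between libraries (two-sided exact permutation p = 0.6). Replicate 1 alone gave 0.217 and the other 4 libraries -0.0253, and without HFD replicate 1 the difference was -0.0208. Fewer macrophages and a lower yield of them from the digestion cannot be told apart.

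The depth and the complexity of the members differed between the diets by less than the spread of the libraries. The median UMIs per member were 2912.5, 4881 and 3670.5 against 3449, 3771 and 3127, with means of 3821 ± 993 and 3449 ± 322 (SD, n = 3, exact permutation p = 0.7). After thinning each member to 1000 UMIs, the median number of genes was 625, 683 and 693.5 against 637, 680 and 681, with means of 667 ± 36.9 and 666 ± 25.1 (SD, n = 3, exact permutation p = 0.8). Within replicate 1 these differences were -536.5 UMIs and -12 genes. Members with at least 2 T cell genes numbered 0, 1 and 1 against 0, 1 and 0, or 1.21% of all members, while 6.05% of spermatid barcodes had as many (exact permutation p = 0.4 between the diets, n = 3).

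The mitochondrial share of the members was 3.05% ± 0.952 (SD, n = 3) under the HFD label and 1.89% ± 0.344 (SD, n = 3) under the LFD label, a difference of 1.16 percentage points (exact permutation p = 0.2). Within replicate 1 it was 1.07, and the other 4 libraries alone gave 1.199, while it was 0.665 without HFD replicate 3. A few members carried much of it. Of the members, 7 exceeded 8%, at 8.27% to 25.6%, of which 4 were in HFD replicate 1 and 3 in HFD replicate 3. They held 40.04% and 59.4% of the mitochondrial UMIs of the members of these libraries, 5 of the 7 had a high doublet score, and 4 of the 7 had gate genes under 1% of their UMIs. These 7 were picked after the data were seen and by the value compared here, so values without them are a description and no test. Without them the shares were 1.93%, 2.13% and 1.87% against 1.91%, 1.54% and 2.22%, and the difference was 0.0871 percentage points. It was 0.363 when the gate genes had to reach 1% of UMIs, 0.592 without the highest doublet scores and 0.693 as the mean over members. Adjusted over the 5 comparisons of share, depth, genes, mitochondrial share and T cell genes, each permutation p was 0.8.

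**Figure D4:**
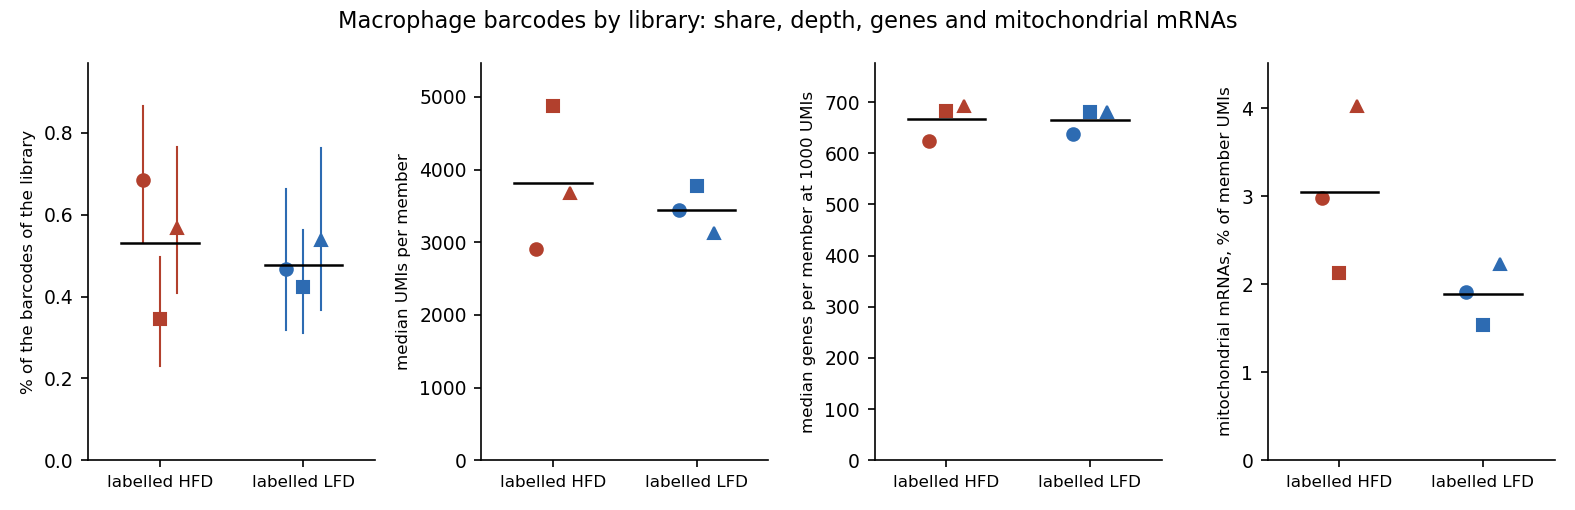
Share of barcodes with 95% exact intervals as lines, median UMIs, median genes at 1000 UMIs and pooled mitochondrial mRNA share of macrophage barcodes, with a point for each library (red for the 3 labelled HFD, blue for the 3 labelled LFD, circle, square and triangle for replicates 1, 2 and 3) and a black bar for the mean of a diet. The diets overlap in each panel, with mitochondrial shares of 2.13% to 4.03% against 1.54% to 2.22%.

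Gene expression in the members was compared on counts summed per library. Of 2561 genes tested, edgeR's quasi-likelihood test called 0 (0.0%) at a Benjamini-Hochberg adjusted p under 0.05, with 0.297 as the lowest adjusted p. An unadjusted p under 0.05 was found for 104 genes (4.06%), 67 of them (2.62%) higher and 37 (1.44%) lower with the HFD label. DESeq2 also called 0, with 50 genes at an unadjusted p under 0.05. The groups did not overlap in 112 genes (4.37%) that were higher and 134 genes (5.23%) that were lower in the libraries labelled HFD. The median standard error of a log2 difference was 0.36.

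With 0 genes called, the 5 genes with the smallest p in each direction are given as values, with log2 differences as HFD minus LFD. Sqstm1 (ENSMUSG00000015837, GRCm38 chromosome 11, 50199366 to 50210827, minus strand), the autophagy adaptor p62, stood at 197, 211 and 160.4 CPM in the libraries labelled HFD and at 63.8, 41.9 and 94.0 CPM in those labelled LFD. The groups did not overlap, with a log2 difference of 1.63 (SE 0.37, edgeR adjusted p = 0.297). Marcksl1 (ENSMUSG00000047945, GRCm38 chromosome 4, 129513581 to 129515985, plus strand), an actin-linked protein, stood at 296, 462 and 362 CPM against 137, 168 and 178 CPM, with a log2 difference of 1.23 (SE 0.29, edgeR adjusted p = 0.297). Litaf, an endosomal protein induced by lipopolysaccharide, stood at 88.8, 70.5 and 71.3 CPM against 9.12, 5.24 and 31.3 CPM from 44 UMIs in all (log2 difference 2.56, SE 0.66, edgeR adjusted p = 0.519). Ccl3 (ENSMUSG00000000982, GRCm38 chromosome 11, 83647844 to 83649355, minus strand) stood at 2335, 3217 and 1675 CPM against 948, 1415 and 1305 CPM, so that the groups did not overlap for it either. Its log2 difference was 1.01 (SE 0.28, edgeR adjusted p = 0.691). The monocyte attractant Ccl2 stood at 178, 329 and 505 CPM against 109, 225 and 104 CPM, where the groups overlapped (log2 difference 1.13, SE 0.35, edgeR adjusted p = 0.999).

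In the other direction, the genes with the smallest p were led by a gene of few UMIs. Mrpl14, a mitochondrial ribosomal protein, stood at 24.7, 23.5 and 17.8 CPM against 82.1, 68.1 and 104 CPM, from 43 UMIs in all (log2 difference -1.82, SE 0.54). The alpha-tubulin gene Tuba3b stood at 503, 352 and 416 CPM against 638, 875 and 721 CPM, and C1qtnf4 at 592, 431 and 558 CPM against 720.4, 1074 and 919 CPM. In all other barcodes these stood at 1151 and 1466 CPM, above every value in the members. Ndufs5, an accessory subunit of complex I, stood at 153, 149 and 113 CPM against 274, 299 and 188 CPM, with 301 CPM in the other barcodes. Cops6, a subunit of the COP9 signalosome, stood at 98.7, 70.5 and 53.5 CPM against 173, 173 and 115 CPM, with 138 CPM in the other barcodes. The groups did not overlap for these 5 genes, and each had an edgeR adjusted p of 0.999.

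**Figure D5:**
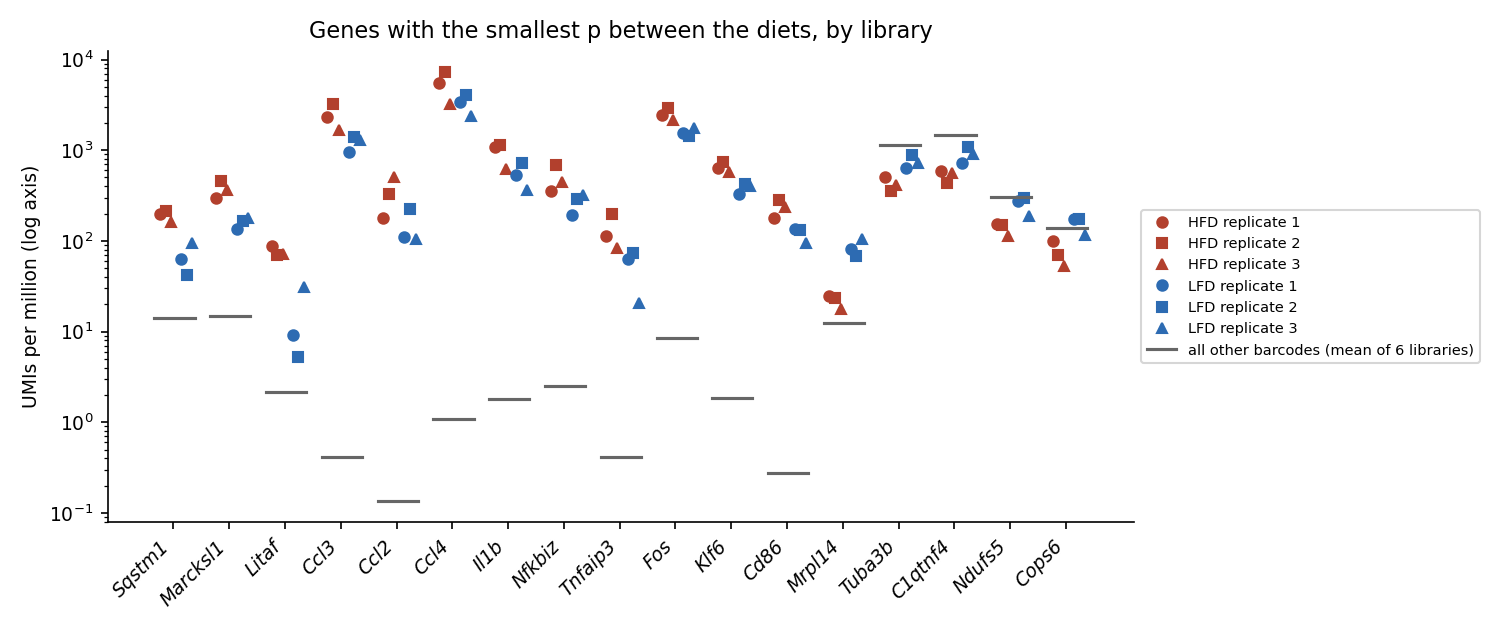
CPM (log axis) of selected genes in macrophage barcodes, with a point for each library (red for the 3 labelled HFD, blue for the 3 labelled LFD) and a grey line for the mean of all other barcodes. Sqstm1, Marcksl1, Litaf and Ccl3 lie higher in the 3 libraries labelled HFD without overlap, while Mrpl14, Tuba3b, C1qtnf4, Ndufs5 and Cops6 lie lower, and 0 genes passed the adjusted test.

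Gene lists of macrophage function were read against all genes tested, of which 49.6% had a log2 difference above 0. An edgeR unadjusted p under 0.05 was found for 4.06% of all genes tested, with 2.62% higher under the HFD label. Of 8 chemokine genes tested, 0 were called, 7 had a difference above 0 and 3 (Ccl3, Ccl2 and Ccl4) had an unadjusted p under 0.05, with a median log2 difference of 0.48. Of 10 cytokine and NF-kB genes, 0 were called, 8 had a difference above 0 and 3 (Nfkbiz, Il1b and Tnfaip3) had an unadjusted p under 0.05, with a median of 0.54. Of 22 immediate early and stress genes, 0 were called, 19 had a difference above 0 and 5 (Klf6, Fos, Klf4, Dusp1 and Ier3) had an unadjusted p under 0.05, with a median of 0.44. Genes of a list are not independent of each other, and no test was made of a list. Single libraries moved these values. Without HFD replicate 2 only 1 immediate early gene and 1 cytokine gene had such a p and the chemokine median was 0.26, and without LFD replicate 2 the immediate early count was 2 higher and 1 lower, with medians of 0.26 for that list and 0.14 for the chemokines. Without HFD replicate 1 the cytokine median was 0.25 and 3 immediate early genes were lower at such a p beside 5 that were higher. Without LFD replicate 1 the immediate early count was 10 with a median of 0.72, without LFD replicate 3 the cytokine and chemokine counts were 2 and 2, and without HFD replicate 3 the cytokine count was 5 with a median of 0.86. The group of members led by Cxcl2, Il1b and Egr1 held 47.1%, 64.3% and 52.4% of the members in the libraries labelled HFD and 32.3%, 23.4% and 41.9% in those labelled LFD, and since such genes made the groups, this is the same measurement and not a separate result. Fos stood at 2458, 2896 and 2179.7 CPM against 1532, 1419.8 and 1765 CPM and Klf6, a zinc finger factor, at 642, 736 and 570.2 CPM against 328, 419 and 407 CPM, without overlap in either gene (log2 differences 0.71 and 0.78, edgeR adjusted p = 0.999 for both). Nfkbiz, a nuclear partner of NF-kB, stood at 350.5, 689 and 451 CPM against 192, 288 and 324 CPM (log2 difference 0.90, SE 0.29, edgeR adjusted p = 0.999).

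The class II, identity, lysosome, lipid, interferon, class I, complement and iron lists had at most 1 gene each with an unadjusted p under 0.05. Of 5 MHC class II pathway genes tested beyond the gate, 0 were called and 1, Cd86, had such a p. Cd86 stood at 178, 282 and 238 CPM against 137, 131 and 94.0 CPM (log2 difference 0.93, SE 0.31, edgeR adjusted p = 0.999). Of 17 tested genes of macrophage identity, 10 had a difference above 0 and 1, Adgre1, had an unadjusted p under 0.05. Of 13 lysosomal genes 4 had a difference above 0, of 7 lipid handling genes 3 and of 5 interferon genes 5. In these 3 lists and in the class I, complement and iron lists 0 genes had an unadjusted p under 0.05. Wfdc17 of the resident list stood at 592, 384 and 380.1 CPM against 1039.6, 707 and 428 CPM (log2 difference -0.64, SE 0.30, edgeR adjusted p = 0.999).

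Among the mitochondrially encoded mRNAs, 11 of 13 were tested and 0 were called. All 11 had a log2 difference above 0 and an unadjusted p under 0.05, with a median of 0.64. Of all genes tested, 2.62% were higher at such a p. These mRNAs are cut from long transcripts of a shared genome and are not independent. mt-Co3, a subunit of cytochrome c oxidase, stood at 5874, 4321 and 9046 CPM against 3675, 3117 and 4428 CPM, where HFD replicate 2 lay below LFD replicate 3 (log2 difference 0.80, SE 0.28, edgeR adjusted p = 0.999). The 7 members above 8% mitochondrial mRNA were picked by these same mRNAs, so values without them are a description and no test. Without them, 0 of the 11 had an unadjusted p under 0.05, 10 had a difference above 0 and the median was 0.11. The count was also 0 of 11 when the gate genes had to reach 1% of UMIs (median 0.31) and without the members of highest doublet score (median 0.41). It was 1 without LFD replicate 2, 3 without HFD replicate 3 and 6 without LFD replicate 1. Without the same 7 members 3 of 8 chemokine genes and 8 of 21 immediate early genes had such a p, with medians of 0.56 and 0.48.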

How the data were processed

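The authors deposited a filtered matrix of UMI counts per gene and barcode for each of 6 libraries of testis cells, made with Cell Ranger 6.0.1 on mm10 according to the submitters' notes and the study's methods. The kit version differs between the labels (v2) and the methods. The matrices hold 0 barcodes under 1000 UMIs. From these counts, shares and levels (CPM, counts per 1000000 UMIs of the members of a library) were computed per library, and members were summed per library for edgeR 4.0.16 (TMM, filterByExpr, quasi-likelihood test, Benjamini-Hochberg adjustment) with DESeq2 1.42.0 as an alternative. Single values were tested by exact permutation over libraries. Doublets were scored with Scrublet and not removed. Members were clustered with scanpy 1.11.5 (1000 variable genes, 15 components, Leiden resolution 0.5). The variable genes left out germ cell, erythroid and mitochondrial genes and genes higher in spermatid barcodes than in members. The scripts were tested on simulated data. The members and gene lists were chosen with earlier results of these data known. Named genes were the 11 gate genes, the list members with the highest levels, the 20 leading genes, the 8 leading genes of each subcluster and, for the diet, the 5 genes with the smallest p in each direction. Further list genes, those at 0 and those under an unadjusted p of 0.05 were named after their values were seen. Some genes that this rule names are not reported here.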

Additional observations from a re-analysis of the deposited data

How the results depend on the processing

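No gene was called by edgeR between the diets under another floor or gate, without members of high doublet score, T cell genes, over 8% mitochondrial mRNA or at least 2 resident genes, under RLE scaling, without a filter on low counts, with a term for the replicate 1 libraries or without any single library (0 to 0 genes), nor by DESeq2. The exception was a fit with the replicate number as a block, which called 3 genes, all higher in the libraries labelled HFD: Sqstm1 (log2 difference 1.62, edgeR adjusted p = 0.0106), Ccl3 (0.99, edgeR adjusted p = 0.0106) and Marcksl1 (1.25, edgeR adjusted p = 0.0215). The numbers were not taken to pair the samples. Over 2561 genes, deviations from the diet mean had correlations of 0.323, -0.0523 and 0.0937 between same-numbered libraries. Between libraries of different numbers they were -0.323 to 0.271. The replicate 1 pair had the highest value, and what these libraries share was not tested. With pairing the exact sign-flip p was 0.75 for the share, 0.5 for the depth and 0.25 for the mitochondrial share. The difference in share was 0.217 within replicate 1, -0.0253 within the other 4 libraries and -0.0208 to 0.149 percentage points without a library. The difference in median UMIs was -536.5 within replicate 1 and -157.5 to 827 without a library, and that in genes was -12 and -13.3 to 22.2. The mitochondrial share of macrophages minus that of the Sertoli gate was -12.2 to -9.31 without a library, and minus that of the stromal gate -3.02 to -2.48, each at p = 0.0625, the smallest that an exact test of 5 libraries gives. The mitochondrial difference between the diets was 0.665 to 1.62 without a library, 0.363 with gate genes at 1% or more, 0.592 without the highest doublet scores, 0.693 as the mean over members and, in alternatives chosen after seeing the data, 0.0871 without members above 8% and 0.342 with the median over members. The log2 difference of mt-Nd2 was -0.053 without those members. Apart from the last value and the 3 called with the block, 631 of 635 values of 34 named genes kept their direction and their side of the threshold. The cause of these changes was not tested. The 28 to 68 members per library limit what could be detected.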
